A study of Mus musculus with 8 samples.

Results

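The 10 genes described here are transcription factors and marker genes of the epithelial-mesenchymal transition (EMT). They were chosen by name: Snai1, Snai2, Twist1, Twist2, Zeb1, Zeb2, Foxq1, Cdh1, Cdh2 and Vim, with every probe annotated to them. RNA came from 5555-mEGFP mouse melanoma cells, a line that carries a green fluorescent protein, and was hybridised to 8 Illumina BeadChip arrays, 2 in each of 4 groups. The cells grew alone (mono-culture) or together with MAF2-mCherry melanoma-associated fibroblasts (co-culture), and each culture received DMSO (0.1%) or PLX4720 (1 mM in the labels, a dose the paper does not give) for 24 h. PLX4720 is an inhibitor of mutant BRAF, and DMSO is its solvent. Green cells were sorted from the co-cultures before RNA extraction, and the sources do not say if the mono-cultures were sorted too. The array annotation named 16593 genes, and 9 of the 10 EMT genes were among them, through 14 probes. No probe carried the symbol Snai2, which was not analysed here. Of the 9, 8 were tested among 7357 genes, because Cdh1 did not reach the detection filter (p below 0.01 on at least 2 arrays).

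In EMT, epithelial cells loosen their junctions and take on the shape and motility of mesenchymal cells. Factors of the Snail, Zeb and Twist families bind E-box sequences and repress junction genes such as Cdh1 (E-cadherin), while N-cadherin (Cdh2) and the intermediate filament vimentin (Vim) are usual markers of the mesenchymal side. Foxq1 is a forkhead factor that can drive the same programme. Melanocytes descend from the neural crest, a tissue that itself passes through EMT, and in melanoma a move from ZEB2 and SNAI2 towards ZEB1 and TWIST1 is known from human tumours.

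Values are background-corrected, quantile-normalized intensities on the log2 scale, and a gene is called where limma's Benjamini-Hochberg adjusted p, over all genes tested, is below 0.05. Nothing in the labels says that the 2 arrays of a group came from separate cultures, and the p-values therefore reflect the scatter of these arrays alone, possibly a technical one. Detection reached 9755 to 10021 of 25697 probes on an array (37.96% to 39.0%), and replicate arrays correlated at 0.990 to 0.995. The labelled cell type was poorly marked: of 13 melanocyte lineage genes with a probe, Gpnmb was detected on all 8 arrays, and Mitf, Tyr, Tyrp1, Dct, Pmel and Mlana on none. Of 18 fibroblast markers, 8 to 11 were detected on the DMSO arrays and 13 on each PLX4720 array, mono-cultures included, while Dcn, Lum, Thy1, Fap and Postn were detected on none. In bulk RNA, fewer cells of a type and less RNA per cell cannot be told apart.

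The start-site windows of Snai1, the EMT gene called in every pairwise comparison, and of Twist2, called lower with the drug, are shown because their levels moved in opposite directions with PLX4720. They run from 250 bases before to 50 after the start (RefSeq, GRCm38.p6), Snai1 at chr2:167537945-167538244 and Twist2 at chr1:91801211-91801510, both on the plus strand. Capitals mark E-boxes, searched as CANNTG on both strands.
Snai1: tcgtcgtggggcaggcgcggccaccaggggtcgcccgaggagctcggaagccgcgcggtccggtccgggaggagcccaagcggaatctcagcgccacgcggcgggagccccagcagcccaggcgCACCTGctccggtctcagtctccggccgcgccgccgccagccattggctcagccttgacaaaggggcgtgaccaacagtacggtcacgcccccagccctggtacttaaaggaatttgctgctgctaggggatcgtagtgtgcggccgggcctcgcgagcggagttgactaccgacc
Twist2: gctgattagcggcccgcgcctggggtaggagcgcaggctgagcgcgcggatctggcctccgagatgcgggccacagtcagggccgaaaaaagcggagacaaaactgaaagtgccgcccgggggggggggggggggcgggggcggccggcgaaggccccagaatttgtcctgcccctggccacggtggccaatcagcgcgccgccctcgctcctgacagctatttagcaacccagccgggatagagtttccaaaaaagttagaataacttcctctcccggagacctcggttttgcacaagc
Snai1 held 1 E-box, at position -126 from the start, and it also matched CAGGTG, read on the opposite strand. CAGGTG is the form best known for Snail and Zeb factors and is contained in CANNTG. Of 32851 mouse windows of 300 bases, 72.3% held CANNTG and 20.2% held CAGGTG. No E-box was found in the windows of Twist1, Twist2, Vim or any of the 4 Zeb2 start sites, which says only that these letters are not there. The AP-1 motif TGANTCA, present in 7.81% of all windows, occurred 2 times in 1 of the 4 Zeb2 windows and in none of the other windows examined.

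Snai1 encodes Snail, a zinc finger repressor of E-cadherin. Its level was 7.03 and 6.97 in mono-culture with DMSO and 7.96 and 8.09 in co-culture with DMSO. With PLX4720 it was 8.30 and 8.52 in mono-culture and 9.37 and 9.20 in co-culture. All 4 groups were thus separate on every array, in the order mono-culture DMSO, co-culture DMSO, mono-culture PLX4720, co-culture PLX4720. The step between the middle pair was not tested. From the lowest to the highest group the mean differed by 2.28 on the log2 scale, or 4.87-fold.

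**Figure D1:**
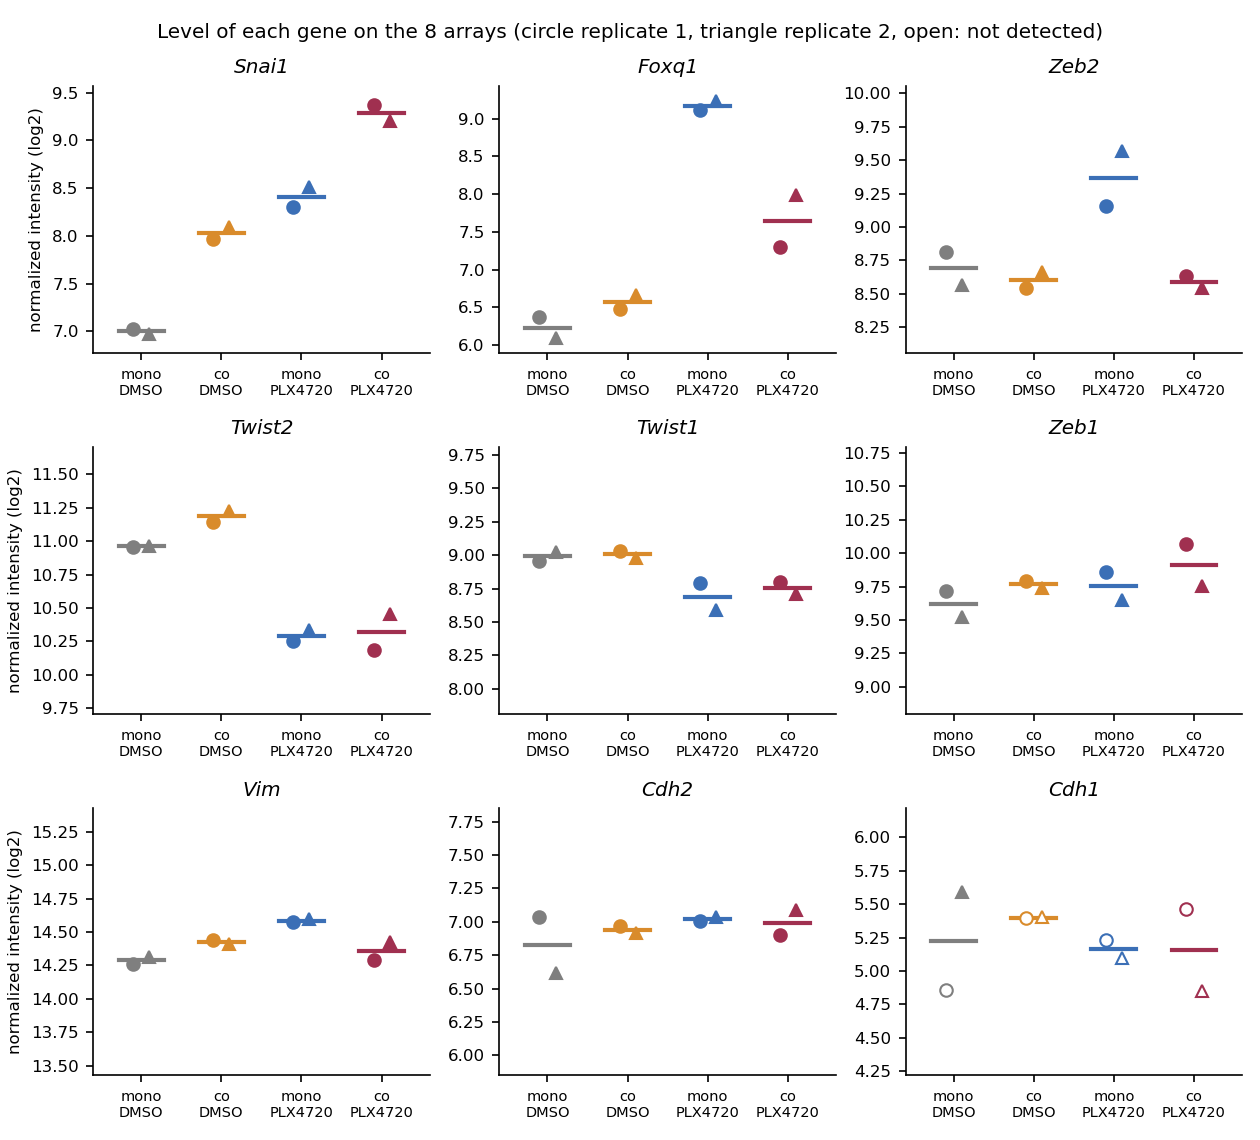
Normalized intensity (log2, vertical axis) of 9 EMT genes in the 4 groups; circles are replicate 1, triangles replicate 2, bars group means, and open symbols arrays on which the probe was not detected. Each vertical axis spans its own range of at least 2 log2 units. Snai1 climbs across the groups to a mean of 9.29, Foxq1 peaks at 9.17 in mono-culture with PLX4720, and Cdh1 is filled on 1 array.

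The first comparison set melanoma cells from co-culture against melanoma cells grown alone, both in solvent. Sorting is stated for the co-cultures only. If the mono-cultures were not sorted, its effect cannot be told apart from that of the fibroblasts, here or in the second comparison. Snai1 was 2.03-fold higher in co-culture (log2 1.02 ± 0.13 SE, n = 2 against 2 arrays, limma adjusted p = 0.00648). It was the 1 EMT gene called of 8, where 1.66% of all genes were called (122, of which 46 were higher and 76 lower). Non-overlapping arrays were found for 5 of the 8 genes, against 49.1% of all genes. The Snai1 call was lost without co-culture DMSO replicate 1 (log2 1.09, adjusted p = 0.0620) or replicate 2 (log2 0.96, adjusted p = 0.0803), where a lone array is assumed to vary like the other groups.

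The other 7 genes were not called with fibroblasts in DMSO, and their log2 differences lay between -0.09 for Zeb2 and 0.34 for Foxq1. The 95% intervals bound what could have been missed: -0.14 to 0.81 for Foxq1, -0.07 to 0.52 for Twist2 and -0.45 to 0.28 for Zeb2. For Vim the interval was -0.13 to 0.40. Vim stood at 14.26 and 14.32 in mono-culture and at 14.44 and 14.41 in co-culture, so its arrays did not overlap although the difference was 0.13.

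The second comparison was co-culture against mono-culture in the presence of PLX4720. Snai1 was again higher, 1.84-fold (log2 0.88 ± 0.13, adjusted p = 0.00980), and Foxq1 and Zeb2 were lower. Thus 3 of 8 EMT genes were called, against 7.35% of all genes (541, of which 286 were higher and 255 lower; with median scaling in place of quantile normalization, 339 and 112 of 451). Arrays did not overlap for 4 of the 8, against 54.3% of all genes. Gpnmb, the melanocyte lineage marker that was detected, was also called lower here (log2 -0.79, adjusted p = 0.0346, held in 10 of 20 alternatives). The summed level of the 13 melanocyte genes with a probe was 13939 and 12220 in mono-culture and 6244 and 9192 in co-culture. As Gpnmb alone of them was detected, this sum mostly restates its level and is no separate result. The part of this fall in the Foxq1 and Zeb2 results was not tested.

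Foxq1 stood at 9.12 and 9.23 in mono-culture with PLX4720 and at 7.30 and 7.99 in co-culture with PLX4720. Both co-culture arrays were below both mono-culture arrays, with an SD of 0.49 (n = 2) between them. The difference was 2.88-fold (log2 -1.53 ± 0.21, adjusted p = 0.00736). In DMSO the gene was dim, at 6.37 and 6.10 in mono-culture and 6.48 and 6.66 in co-culture, with the co-culture arrays on top.

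Zeb2, a zinc finger homeodomain repressor that also belongs to the normal melanocyte programme, stood at 9.16 and 9.57 in mono-culture with PLX4720 and at 8.63 and 8.54 in co-culture with PLX4720. The groups did not overlap, and the co-culture arrays lay close to the 4 DMSO arrays, which read 8.54 to 8.82. It was 1.72-fold lower (log2 -0.78 ± 0.16, adjusted p = 0.0281). Among 20 alternative settings this call held in 11, and without filtering dim probes the adjusted p was 0.0597.

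Leaving out co-culture PLX4720 replicate 1 ended all 3 of these calls. Without it Snai1 differed by 0.79 (adjusted p = 0.0667), Foxq1 by -1.18 (adjusted p = 0.0513) and Zeb2 by -0.83 (adjusted p = 0.112). The Zeb2 call was also lost without co-culture PLX4720 replicate 2 (0.0644), mono-culture PLX4720 replicate 2 (0.132) or either co-culture DMSO array (0.0528). The 5 EMT genes not called had differences from -0.23 for Vim (95% interval -0.49 to 0.04) to 0.16 for Zeb1 (-0.18 to 0.49).

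**Figure D2:**
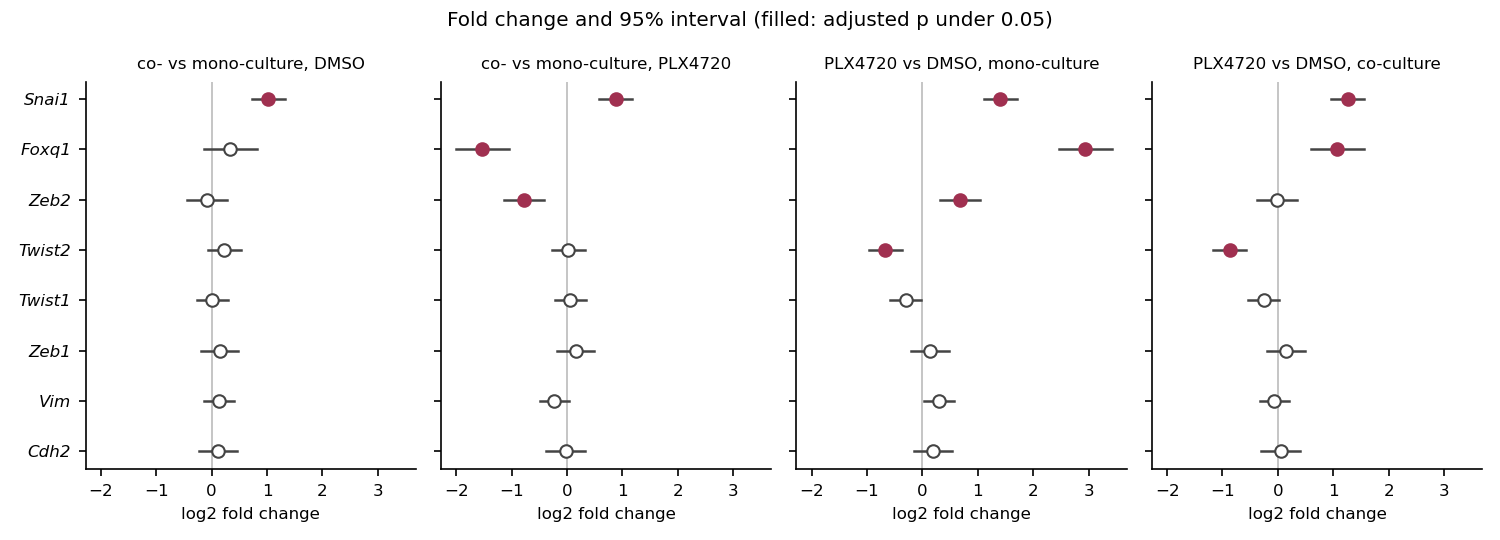
Log2 fold change (horizontal axis) of the 8 tested EMT genes in 4 comparisons, with 95% intervals as lines; filled points have an adjusted p below 0.05. Snai1 is filled and right of zero in all 4 panels, Foxq1 is left of zero in co-culture against mono-culture with PLX4720 (-1.53) and right of zero in both drug panels, and Twist2 is filled and left of zero in both drug panels.

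PLX4720 against DMSO in cells grown alone was the third comparison, and it moved the most genes. Of the 8 EMT genes 4 were called, against 38.7% of all genes (2850, of which 1483 were higher and 1367 lower; with median scaling, 1033 and 1351 of 2384), a share near that background. Snai1, Zeb2 and Foxq1 rose and Twist2 fell. Arrays did not overlap for 6 of the 8, against 71.5% of all genes.

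Foxq1 rose from means of 6.23 to 9.17, or 7.67-fold (log2 2.94 ± 0.21, adjusted p = 2.01e-05). This was the widest change of any of the 8 genes in the 4 pairwise comparisons. Snai1 rose 2.65-fold (log2 1.41 ± 0.13, adjusted p = 7.80e-05). Zeb2 stood at 8.82 and 8.57 in DMSO and at 9.16 and 9.57 with the drug, so the groups were separate but each was spread. It rose 1.60-fold (log2 0.68 ± 0.16, adjusted p = 0.00966), and the call was lost without mono-culture DMSO replicate 2 (0.0628) or mono-culture PLX4720 replicate 2 (0.0704).

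Twist2, a basic helix-loop-helix factor close to Twist1, was at 10.96 on both mono-culture DMSO arrays and at 10.25 and 10.33 with PLX4720. In co-culture it was at 11.14 and 11.23 with DMSO and at 10.18 and 10.46 with PLX4720. All 4 drug arrays therefore lay below all 4 DMSO arrays. It fell by 0.67 on the log2 scale in mono-culture (SE 0.13, adjusted p = 0.00374) and by 0.87 in co-culture (SE 0.13, adjusted p = 0.00145).

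Twist1 had the same arrangement on a smaller scale and did not pass the test in either culture. Its DMSO arrays read 8.96 and 9.02 in mono-culture and 9.03 and 8.98 in co-culture. The PLX4720 arrays read 8.79 and 8.59 in mono-culture and 8.80 and 8.71 in co-culture. Although no drug array reached a DMSO array, the differences of -0.30 (95% interval -0.58 to -0.02) and -0.25 (-0.54 to 0.03) had adjusted p = 0.0856 and 0.166.

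In co-culture, the fourth comparison, PLX4720 against DMSO called 3 of the 8 EMT genes, Snai1 and Foxq1 higher and Twist2 lower, against 27.0% of all genes (1987, of which 1053 were higher and 934 lower; with median scaling, 1098 and 567 of 1665). Arrays did not overlap for 4 of the 8, against 65.6% of all genes. Snai1 rose 2.39-fold (log2 1.26 ± 0.13, adjusted p = 0.000205). Foxq1 rose 2.11-fold (log2 1.08 ± 0.21, adjusted p = 0.00540). Zeb2 differed by -0.02 (95% interval -0.38 to 0.35), with all 4 co-culture arrays between 8.54 and 8.66.

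Whether the drug acted differently with fibroblasts present was tested as an interaction, the difference of the 2 drug effects. None of the 8 EMT genes was called, against 0.122% of all genes (9, of which 3 were higher and 6 lower). At an unadjusted p below 0.05 there were 2 of 8, Foxq1 and Zeb2, and 1217 of all 7357. With median scaling 110 genes were called, 85 higher and 25 lower, and the median of all genes shifted to 0.16, so differences under that setting are read against it.

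Foxq1 came closest: its drug effect was smaller by 1.86 on the log2 scale in co-culture (log2 -1.86 ± 0.30, 95% interval -2.54 to -1.19, adjusted p = 0.0554). It passed in 7 of 18 alternatives. Among them were the authors' own log2 values (-1.28, adjusted p = 0.00716), which equal the setting without background correction, also counted among the 7. Others were median scaling (-1.70, adjusted p = 0.0202) and the fit without co-culture PLX4720 replicate 2 (-2.21). For Zeb2 the interaction was -0.69 ± 0.23 (adjusted p = 0.190) and passed in none of the 18. Snai1 had an interaction of -0.15 (95% interval -0.57 to 0.28), so a difference of its 2 drug effects larger than 0.57 lay outside the interval. The intervals were -0.62 to 0.22 for Twist2 and -0.35 to 0.45 for Twist1.

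**Figure D3:**
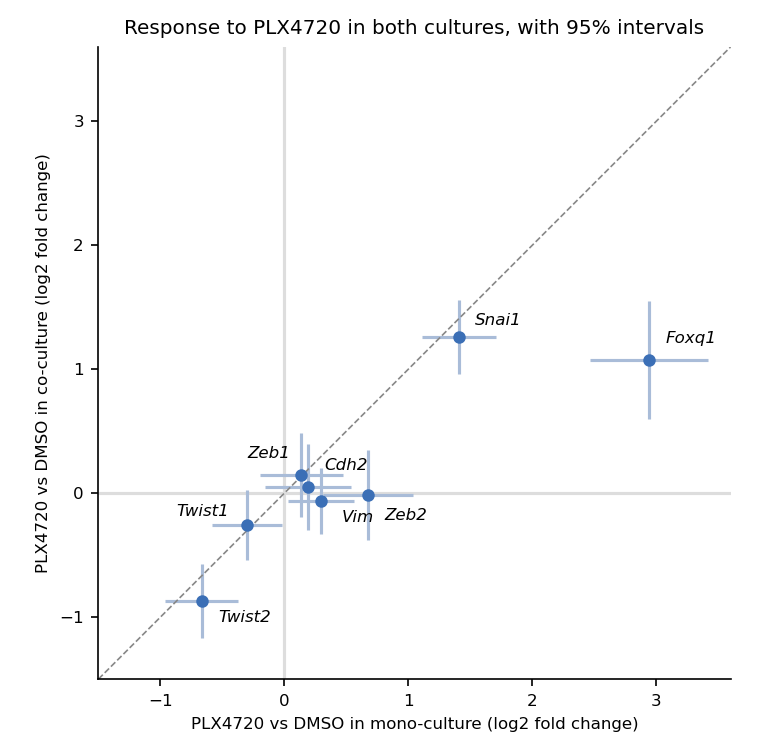
Log2 fold change of PLX4720 against DMSO in mono-culture (horizontal axis) and in co-culture (vertical axis) for the 8 tested EMT genes, with 95% intervals as bars; the dashed line marks equal responses. Both axes use the same scale. Foxq1 lies well below the line (2.94 against 1.08), Zeb2 lies on the horizontal zero line (0.68 against -0.02), and Snai1 and Twist2 lie near the line.

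Vim and Cdh2, usual readouts of these factors, were called in no comparison, and Cdh1 was too dim to test. The Cdh1 probe was detected on 1 of 8 arrays, mono-culture DMSO replicate 2, at 5.59. The other 7 arrays read 4.85 to 5.46, and no fold is given. Vim was bright on every array, from 14.26 to 14.60. Its nearest result was PLX4720 in mono-culture (log2 0.30, 95% interval 0.03 to 0.56, adjusted p = 0.0750), where it did pass without background correction (log2 0.29, adjusted p = 0.0177). Zeb1, the paralogue of Zeb2, read 9.52 to 10.07 over the 8 arrays, and none of its 4 pairwise differences exceeded 0.16.

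Cdh2 was the gene on which probes disagreed. Its brightest probe, ILMN_2764136, was detected on all 8 arrays and read 7.04 and 6.62 in mono-culture DMSO and 6.90 to 7.08 on the other 6. In DMSO its co-culture difference was 0.11 (95% interval -0.24 to 0.46). The second probe, ILMN_1247861, was detected on 6 arrays and differed by -0.36. The remaining 2 were detected on 1 array each and were not tested, and they differed by -0.48 and -0.35. Neither of the 2 tested Cdh2 probes was called in any comparison, so no direction is given for N-cadherin.

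Snai1 and Zeb2 each had a second probe, ILMN_1241355 and ILMN_2419650, that was detected on 0 of 8 arrays. Their values rest on 1 probe each, as do those of Twist1, Twist2, Zeb1, Foxq1 and Vim.

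**Figure D4:**
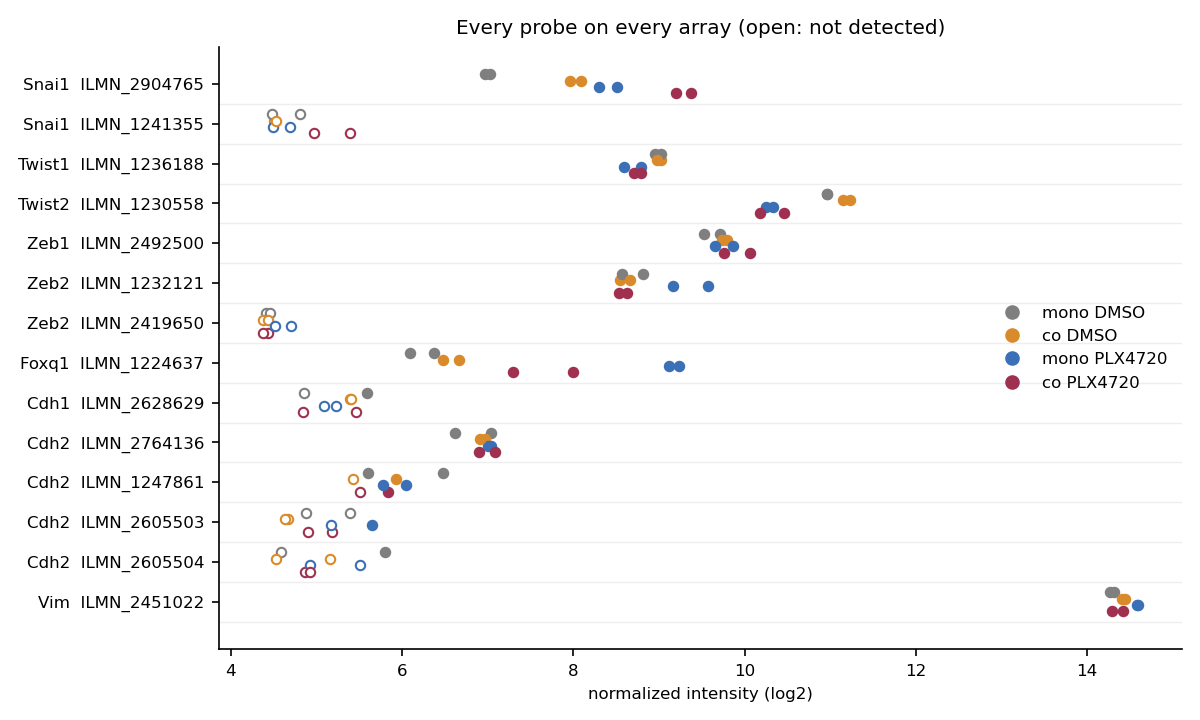
Normalized intensity (log2, horizontal axis) of each of the 14 probes (rows) on each of the 8 arrays, coloured by group; open circles mark arrays on which the probe was not detected. The second probes of Snai1 and Zeb2 are open on all 8 arrays, and the Cdh1 probe is filled on 1.

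For each gene called in any comparison, the tested genes most like it over the 8 arrays were found by Pearson correlation, given without a p because the 8 arrays share 4 groups. Nearest to Snai1 were Rnu6, Vegfc, St3gal5, Porcn and Tcirg1 (r = 0.973 to 0.979). Nearest to Foxq1 were Gdpd1, Gnb5, P2ry14, Zfp637 and Snx33 (0.985 to 0.996), nearest to Twist2 Noc4l, Nup37, Vps37b, Dctpp1 and Nudc (0.984 to 0.992), and nearest to Zeb2 Sfi1, Selenof, Acaa2, Eps8l2 and Ankle2 (0.942 to 0.964).

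Among 13 other tested EMT transcription factors, none was called with fibroblasts in DMSO, against 1.66% of all genes. With fibroblasts and PLX4720 7.69% were called, against 7.35% of all genes. With the drug 53.8% were called in mono-culture and 30.8% in co-culture, against 38.7% and 27.0% of all genes. With fibroblasts in DMSO, the smallest p values were those of Wwtr1, the TAZ coactivator (log2 0.57, adjusted p = 0.0872), and Sox9 (0.70, 0.119). With fibroblasts and PLX4720, Snai3, a Snail paralogue, was called lower (at least 1.08-fold, adjusted p = 0.0482, detected on 0 of 2 co-culture PLX4720 arrays), and this held in 6 of 19 alternatives. With the drug, Klf4, Sox9 and Wwtr1 were called lower in both cultures, Wwtr1 in mono-culture under 10 of 20 alternatives. Sox9 was detected on 1 mono-culture PLX4720 array and on 0 in co-culture, where its fall is given as at least 2.87-fold. Hmga2 was also called lower in both, but it was detected on the 2 mono-culture DMSO arrays alone and entered the test through them. Nothing is read from its difference or from its part in the drug shares above, which count it. Foxc1, Sox4 and Ets1 were called higher in mono-culture.

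Of 16 other cadherins and catenins with a probe, 3 were detected often enough to test. Cdh6 (K-cadherin) stood at 7.01 ± 0.47 in mono-culture DMSO and 8.21 ± 0.27 in co-culture DMSO (mean ± SD, n = 2). It was called 2.29-fold higher (adjusted p = 0.0378), and the call held in 11 of 19 alternatives, not without mono-culture DMSO replicate 2 (0.141) or any co-culture array (0.0579 to 0.296). With PLX4720 it was lower in mono-culture (log2 -1.16, adjusted p = 0.00413) and in co-culture (log2 -2.60, adjusted p = 7.82e-05). Ctnnb1 (beta-catenin) was higher with the drug in co-culture (log2 0.54, adjusted p = 0.0154), and Ctnna1 was not called. With fibroblasts, 33.3% of the 3 were called in DMSO and none with PLX4720, against 1.66% and 7.35% of all genes. With the drug, 33.3% were called in mono-culture and 66.7% in co-culture, against 38.7% and 27.0%.

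Epithelial genes were mostly undetected: 4 of 23 with a probe could be tested. None was called with fibroblasts, where 1.66% (DMSO) and 7.35% (PLX4720) of all genes were called. Cldn1, a tight junction protein, fell with PLX4720 in mono-culture (log2 -1.07, adjusted p = 0.00282) and in co-culture (log2 -0.80, adjusted p = 0.0171). Of the 4 tested genes, 25% were thus called with the drug in each culture, against 38.7% (mono-culture) and 27.0% (co-culture) of all genes. Keratins Krt5, Krt7, Krt8, Krt14, Krt18 and Krt19 were detected on no array.

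Other mesenchymal genes (13 tested) and TGF-beta inputs and targets (17 tested) were called more often with the drug, as were all genes (38.7% in mono-culture and 27.0% in co-culture, against 1.66% and 7.35% with fibroblasts). With fibroblasts in DMSO, 1 of the 13, Acta2 (smooth muscle actin), fell (log2 -2.39, adjusted p = 0.00775), a call lost without co-culture DMSO replicate 1 (0.0620) or 2 (0.0671) or mono-culture DMSO replicate 2 (0.0563). The mean of its kept probes differed by -1.39 (adjusted p = 0.138), so the probes of Acta2 did not give one size. With PLX4720 6 rose in each culture: Sparc, Acta2, Tpm1, Mmp2, Mmp14 and Cald1, with Sparc in mono-culture passing in 8 of 20 alternatives. Cd44 fell in both cultures and Axl in co-culture. Acta2 rose by 3.93 in mono-culture (adjusted p = 5.14e-05) and by 6.13 in co-culture (adjusted p = 5.47e-06).

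TGF-beta is a well known inducer of Snai1. With fibroblasts in DMSO Skil, a feedback inhibitor of the pathway, rose 2.10-fold (adjusted p = 0.00648), a call lost without either co-culture DMSO array (0.0620 and 0.0744). With fibroblasts and PLX4720 Id1, Id2 and Id3, targets of BMP and TGF-beta signals, were higher than in mono-culture by 0.98, 0.97 and 1.15 (log2). Leaving out co-culture PLX4720 replicate 1 ended all 3 calls (0.0705, 0.255 and 0.0520). The Id2 call (adjusted p = 0.0492) held in 6 of 19 alternatives, and was also lost without co-culture PLX4720 replicate 2 (0.0540), mono-culture PLX4720 replicate 2 (0.208) or any DMSO array (0.0605 to 0.0752). With the drug 10 of the 17 were called higher and 3 lower in mono-culture, where 38.7% of all genes were called, and 7 higher and 2 lower in co-culture, where 27.0% were. Id1 was among those lower in mono-culture (log2 -1.17, adjusted p = 0.000364), and Id3 among those higher in both cultures (log2 0.73 and 1.94). The Id1 mean with PLX4720 was 7.05 in mono-culture and 8.03 in co-culture, against 8.21 and 8.44 with DMSO. Smad6, an inhibitory Smad, rose 3.63-fold in mono-culture (adjusted p = 4.58e-05) and 3.11-fold in co-culture (adjusted p = 0.000117). Tgfb2, counted among those higher, was detected on the 4 PLX4720 arrays alone and entered the test through them. Nothing is read from its difference or from its part in the counts. The median log2 change of the 17 genes with PLX4720 was 0.50 in mono-culture and 0.16 in co-culture, against 0.01 and 0.01 for all genes. Both medians include Tgfb2, and the co-culture median is the value of Pmepa1, detected on 1 co-culture DMSO array. Nothing is therefore read from the medians.

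**Figure D5:**
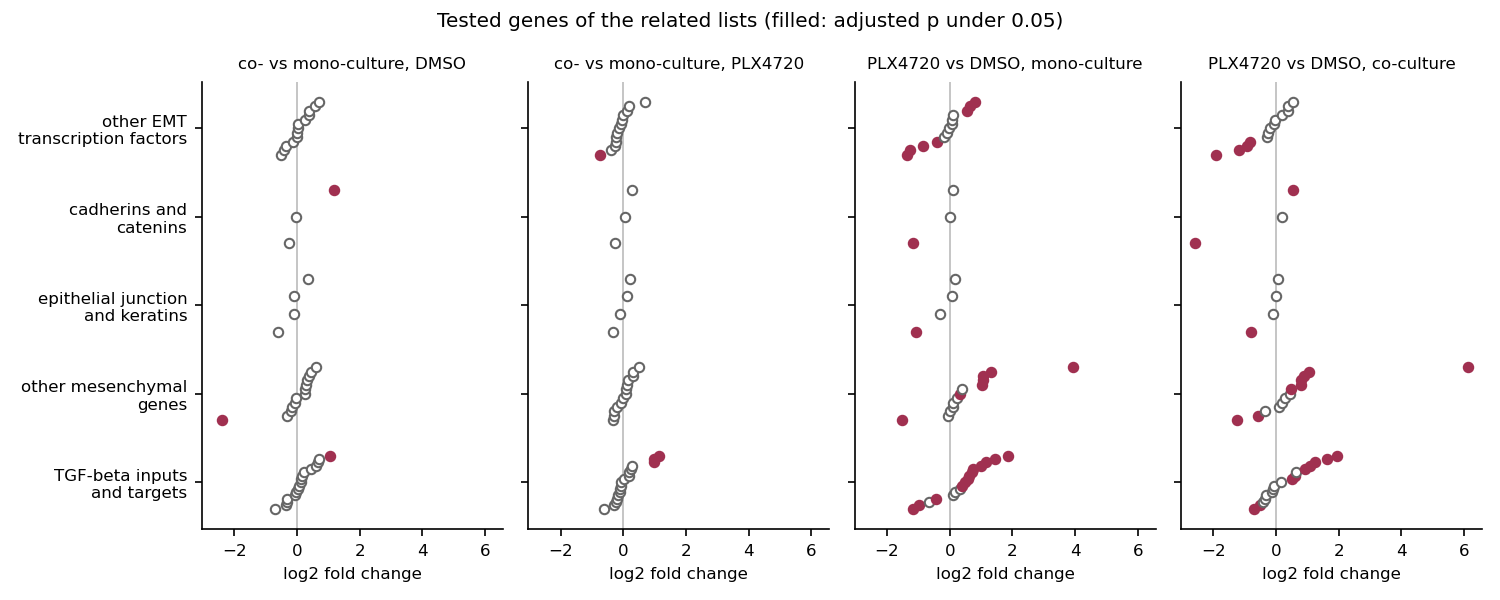
Log2 fold change (horizontal axis) of the tested genes of 5 related lists (rows) in 4 comparisons; each point is a gene, and filled points have an adjusted p below 0.05. The 2 drug panels hold most of the filled points, and the rightmost point is Acta2 in co-culture (6.13).

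The summed linear level of the fibroblast list was 5345 and 6324 in mono-culture DMSO, 5212 and 5513 in co-culture DMSO, 19694 and 14108 in mono-culture PLX4720 and 15516 and 15462 in co-culture PLX4720. The sums were therefore high on all PLX4720 arrays, including cells grown without fibroblasts. Acta2 held most of that rise: without it the sums were 4909 to 5669 on the DMSO arrays and 6706 to 8705 on the PLX4720 arrays. None of the 13 tested genes of the list was called higher in co-culture under either treatment. In DMSO 3 (Col3a1, Col6a1 and Acta2) were called lower, where 1.66% of all genes were called in either direction. With PLX4720 none was called, against 7.35% of all genes. Col3a1 held in 1 of 19 alternatives. Col6a1 was detected on no co-culture DMSO array, and the mean of the kept Acta2 probes did not pass (limma adjusted p = 0.138). With PLX4720 9 of the 13 were called higher in each culture, where 1483 (mono-culture) and 1053 (co-culture) of all 7357 genes were. Col1a1 and Mfap5, among the 9, were detected on the PLX4720 arrays alone and entered the test through them. Nothing is read from their differences or from their part in the count. Col1a2, also among the 9, was detected on 1 mono-culture DMSO array and on no co-culture DMSO array. Pdpn was called lower in mono-culture (log2 -1.01, adjusted p = 0.000417), and Pdgfra, S100a4 and Fbln2 were called in neither. The part of these markers in the drug results was not tested.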

How the data were processed

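The authors deposited mean bead intensities with a detection p-value per probe and array, and log2 values from lumi (version not given in the sources used here). The deposited log2 values equalled quantile-normalized intensities without background correction. The deposited detection p-values gave the negative controls from which intensities were background-corrected and quantile-normalized (limma 3.58.1 neqc, offset 16, R 4.3.3). Probes with detection p below 0.01 on at least 2 of 8 arrays were kept (10660 of 25697), and the probe with the highest mean stood for a gene. Of 25697 probes, 23978 had 1 symbol, 1719 had none and 0 had several, and 23962 matched the RefSeq gene table. All 8 arrays entered 1 limma fit (lmFit, eBayes), so groups share an estimate of the spread. The fit was tested on simulated data. The 4 pairwise comparisons share groups of arrays, and the number of arrays limits the precision.

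Arrays were grouped by their titles. Genes and lists were chosen with earlier results of these data known. The text names all 10 EMT genes and, from the other lists, genes called or with the smallest p. Not every called gene of the TGF-beta and fibroblast lists is named. The alternatives were no or another background correction, median scaling, the authors' values, other filters and probe rules and a replicate block. Further ones were array weights, fewer arrays and the t-test that the methods name for gene ranking. The authors' values equal those without background correction, so counts of alternatives hold that setting under both names.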

Additional observations from a re-analysis of the deposited data

Results flagged for a closer look

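Foxq1 and Vim were picked out because every co-culture array lay above every mono-culture array in DMSO and below every one with PLX4720. The interaction was -1.86 for Foxq1 (adjusted p = 0.0554) and -0.36 for Vim (adjusted p = 0.318) on the log2 scale, and neither passed the threshold. With 2 arrays a group no test for single outlying arrays was made.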

How the results depend on the processing

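The 4 pairwise comparisons and the interaction were recomputed under up to 20 alternatives. By the t-test that the paper's methods name for ranking genes in gene set analysis, 0 EMT genes passed after adjustment in each pairwise comparison. Of all 7357 genes 0, 0, 0 and 7 passed, so the 0 is no result about the EMT genes. Before adjustment 3, 2, 4 and 3 EMT genes passed (871, 897, 2241 and 1950 of all genes). Leaving out 1 array, the number called ranged from 0 to 1 in co-culture against mono-culture with DMSO, from 0 to 3 with PLX4720, and from 0 to 1 for the interaction. The interaction called 1 gene, Foxq1, without background correction, which equals the authors' log2 values, with an offset of 50 and with median scaling. It did so too with detection on all 8 arrays and with the replicate block. Replicate numbers did not pair the arrays (correlations of deviations -0.08 to 0.09), and the replicate block gave an adjusted p of 0.0398 for the Foxq1 interaction. Changes of sign touched only differences that were not called. With median scaling these were Twist1 with fibroblasts in DMSO (-0.054), Cdh2 with fibroblasts and PLX4720 (0.020), Zeb2 with the drug in co-culture (0.079) and the interactions of Snai1 (0.017) and Twist2 (0.0031). The Snai1 interaction was 0.068 without background correction, which equals the authors' log2 values. Cdh2 with fibroblasts in DMSO was -0.12 for the mean of the kept probes and -0.36 for its second probe. Without 1 array, values with fibroblasts in DMSO spanned -0.019 to 0.048 (Twist1), -0.21 to 0.036 (Zeb2) and -0.097 to 0.32 (Cdh2). With fibroblasts and PLX4720 they spanned -0.11 to 0.16 (Twist2), -0.038 to 0.16 (Twist1), -0.00085 to 0.31 (Zeb1) and -0.12 to 0.066 (Cdh2). With the drug they spanned -0.021 to 0.40 (Cdh2, mono-culture), and -0.010 to 0.30 (Zeb1), -0.076 to 0.044 (Zeb2) and -0.039 to 0.14 (Cdh2) in co-culture. The interactions spanned -0.15 to 0.17 (Zeb1), -0.35 to 0.073 (Cdh2) and -0.053 to 0.15 (Twist1). The causes were not tested.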
